A study of Rattus norvegicus with 6 samples.

Results

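The Cyp4 genes encode cytochrome P450 enzymes that add a hydroxyl group to the end of a fatty acid chain. Of 15284 genes named on the array, 9 rat Cyp4 genes are described here, 4 of the Cyp4a subfamily (Cyp4a1, Cyp4a2, Cyp4a3 and Cyp4a8), 3 of the Cyp4f subfamily (Cyp4f1, Cyp4f4 and Cyp4f6), and Cyp4b1 and Cyp4v3. They were chosen by symbol, and their probes are the 15 of 61657 non-control probes whose accession maps to one of these symbols. Liver RNA came from 6 male Sprague-Dawley rats (Crl:CD(SD), 5 weeks old when bought), hybridised to 1 single-colour array each. Of these, 3 rats had been given corn oil, the vehicle, and 3 had been given o-anthranilic acid, an aromatic amino acid formed when tryptophan is degraded, at 1000 mg/kg/day. The labels give 9 weeks of dosing in one place and measurement at 28 days in another, so the length of dosing is open.

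In liver, the omega-hydroxylase reaction opens a side route of fatty acid breakdown: the hydroxyl group is oxidised by alcohol and aldehyde dehydrogenases to a second carboxyl group, and the resulting dicarboxylic acid is shortened in peroxisomes. Cyp4a genes are classical targets of the fatty acid receptor PPAR-alpha, and rat liver responds to PPAR-alpha activators with strong Cyp4a induction. Cyp4f enzymes act on longer chains and on lipid mediators such as leukotriene B4, and are not known for a comparable induction by PPAR-alpha activators.

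The 250 bases upstream of the annotated start are shown for the 3 Cyp4a genes that the results turn on and, as a contrast, for Cyp4f1, from RefSeq on GRCr8. Capitals mark AGGTCA, the 6-letter motif from which binding sites of PPAR-alpha and related nuclear receptors are built, searched on both strands. All are written 5′ to 3′ along the gene, which lies on the minus strand in each case. Cyp4a2 is shown for chr5:134170909-134171158, Cyp4a3 for chr5:134352237-134352486, Cyp4a8 for chr5:133970227-133970476 and Cyp4f1 for chr7:12672554-12672803.
Cyp4a2: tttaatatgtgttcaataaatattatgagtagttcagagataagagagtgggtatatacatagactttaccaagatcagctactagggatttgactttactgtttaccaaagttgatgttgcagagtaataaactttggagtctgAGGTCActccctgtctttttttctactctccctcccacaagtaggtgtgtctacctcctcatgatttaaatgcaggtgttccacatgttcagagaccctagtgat
Cyp4a3: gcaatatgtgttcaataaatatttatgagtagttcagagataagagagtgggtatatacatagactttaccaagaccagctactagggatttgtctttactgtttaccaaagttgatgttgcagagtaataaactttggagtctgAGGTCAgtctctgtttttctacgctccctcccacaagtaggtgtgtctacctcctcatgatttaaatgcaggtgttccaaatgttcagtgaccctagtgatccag
Cyp4a8: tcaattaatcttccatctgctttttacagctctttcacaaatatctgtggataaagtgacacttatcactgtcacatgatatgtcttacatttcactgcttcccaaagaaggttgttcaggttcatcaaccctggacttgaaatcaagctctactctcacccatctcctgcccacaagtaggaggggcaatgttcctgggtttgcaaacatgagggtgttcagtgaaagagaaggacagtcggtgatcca
Cyp4f1: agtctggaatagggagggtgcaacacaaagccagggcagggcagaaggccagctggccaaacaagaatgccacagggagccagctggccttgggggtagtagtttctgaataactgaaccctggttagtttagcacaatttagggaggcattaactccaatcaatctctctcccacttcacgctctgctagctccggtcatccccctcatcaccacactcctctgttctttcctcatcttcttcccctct

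The Cyp4a2 and Cyp4a3 stretches were nearly the same, with 236 identical bases in an alignment of 255 columns (92.5%). Each held a single AGGTCA, 105 bases before the start. Those of Cyp4a8 and Cyp4f1 held none, whereas 14.1% of 33469 promoters of this length did. Cyp4a8 matched Cyp4a2 at 56.9% of alignment columns and Cyp4a3 at 59.5%. Against Cyp4f1 the values were 52.3% for Cyp4a2, 52.3% for Cyp4a3 and 45.6% for Cyp4a8. The full direct repeat AGGTCANAGGTCA was in 0.0508% of all promoters and in none of the 6 member promoters that the table holds. A near copy named Cyp4a2l1, which lies between Cyp4a2 and Cyp4a3 in that assembly, has 214 bases in common with the Cyp4a2 stretch with 0 mismatches, apart from 72 gap columns. Probe sequences were not used here, so whether a probe of one Cyp4a gene also binds RNA of a related copy was not tested.

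Signals below are log2 values relative to the array's 75th percentile, and a value of one probe cannot be compared with that of another probe. A difference is the treated mean minus the corn oil mean in log2 units, and its standard error (SE) comes from a limma fit over 33428 tested probes. A probe counted as changed at a Benjamini-Hochberg adjusted p under 0.05. All 15 Cyp4 probes were tested, and 14 were well above background on all 6 arrays. In bulk liver, fewer cells of a type and less RNA per cell cannot be told apart.

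Slide 1 held the 3 corn oil livers in row 1 and the treated replicates 1 and 2 in row 2. Treated replicate 3 was in row 1 of slide 2, which was scanned at another time. It is the array that stands apart in several results below, so values without it, which are those within slide 1, are given beside them. Leaving out an array that stands apart narrows the spread, so any smaller SE or p-value without it is no support for a change. Treated replicate 3 also had the lowest share of probes well above background, 53.3% against 55.2% to 58.0% on the others. Its median signal was the lowest too, at 43.4 against 47.9 to 50.3. Over all tested probes, replicate 3 was at least 1 log2 unit from the mean of the other treated arrays at 2.71% of probes, against 2.01% and 2.37% for replicates 1 and 2. The tissue label was checked against markers: all 10 hepatocyte markers were well above background on all 6 arrays. None of 4 lung markers was on all 6, though only Sftpb was not well above background on any array. Of 4 kidney tubule markers, Slc34a1 and Umod were not well above background on any array, and the other 2 were on all 6. The summed hepatocyte marker signal was 5491 to 5598 times the 75th percentile in corn oil livers and 5128 to 5326 in treated livers. Lymphocyte markers summed to 2.19 to 2.53 in corn oil livers and to 2.98 to 3.71 in treated livers, with Cd3e not well above background on any array. The part of these shifts in the Cyp4 values was not tested.

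None of the 15 Cyp4 probes passed the limma test, where 0.0329% of all tested probes did (11 of 33428; 0.0239% lower and 0.00897% higher). Without anthranilic acid replicate 3 none passed either, against 0.056% of all probes. At unadjusted p under 0.05 there were 2 of 15, near the 12.2% of all tested probes (6.52% lower and 5.72% higher), and adjusted p-values ranged from 0.158 to 0.982. The groups did not overlap at 2 of 15 probes, 1 of Cyp4a8 and that of Cyp4b1, both lower in treated livers; 20.3% of all tested probes did not overlap, with 9.65% lower. Of the 8 Cyp4a probes 6 were below 0, and all 4 Cyp4f probes were above 0. The plots of signals by array and of the differences with their intervals give all 15 probes.

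**Figure D1:**
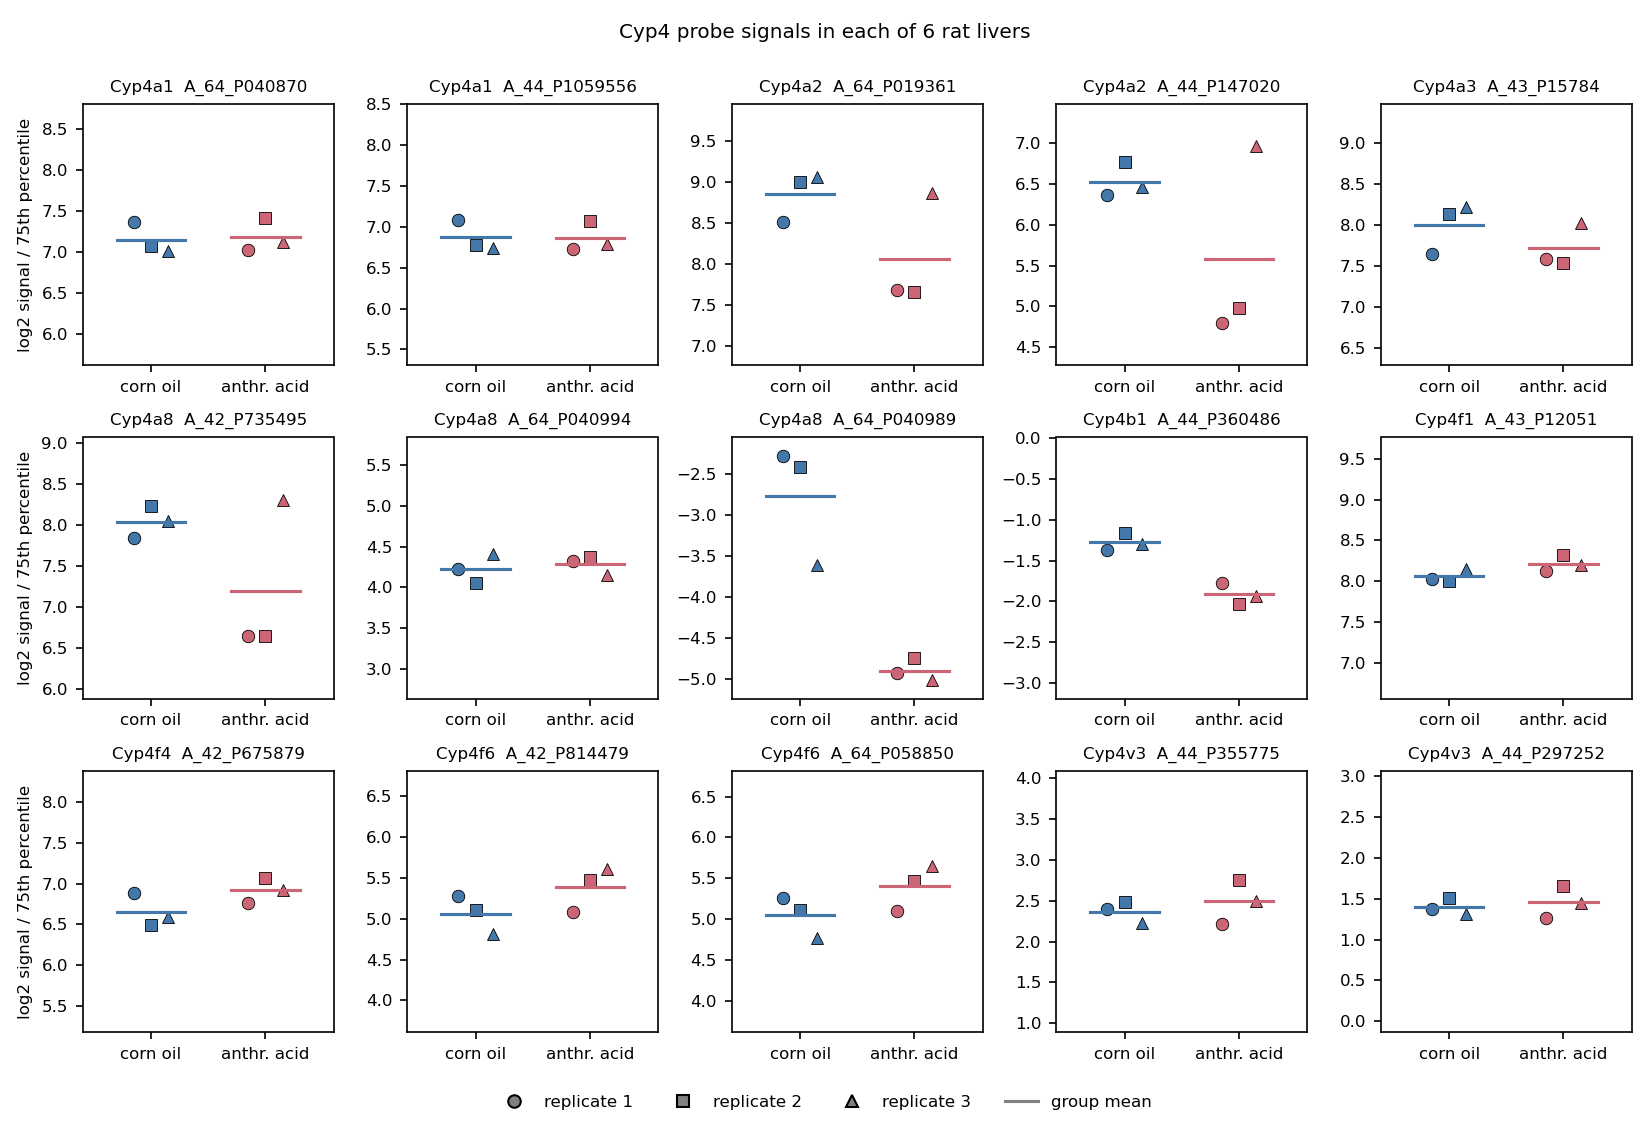
Signal of each of the 15 Cyp4 probes (vertical axis, log2 of the signal over the array's 75th percentile, each panel spanning the same range) in 3 corn oil livers (blue) and 3 anthranilic acid livers (red), with the group mean as a line. In the panels of Cyp4a2, Cyp4a3 and Cyp4a8 probe A_42_P735495, the triangle of anthranilic acid replicate 3 lies near the corn oil points and replicates 1 and 2 lie lower.

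Cyp4a2 encodes a fatty acid and arachidonic acid omega-hydroxylase, and in the treated group its RNA was low in 2 livers and at the corn oil level in the other. Its brighter probe, A_64_P019361, read 8.52, 9.0 and 9.06 in corn oil replicates 1 to 3. In anthranilic acid replicates 1, 2 and 3 it read 7.68, 7.65 and 8.87. Replicates 1 and 2 of the treated group lay below every corn oil liver, whereas replicate 3 lay inside the corn oil range, so the groups overlapped. The difference was -0.79 (SE 0.36, 95% interval -1.65 to 0.067, n = 3 per group, limma adjusted p = 0.426). Without anthranilic acid replicate 3 it was -1.20 (SE 0.19, adjusted p = 0.179), a 2.29-fold difference. Leaving out anthranilic acid replicate 1 or replicate 2 instead gave -0.60 and -0.59.

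The other Cyp4a2 probe, A_44_P147020, showed the same arrangement on a wider scale. It read 6.36, 6.77 and 6.46 in corn oil livers, and 4.79, 4.98 and 6.96 in treated livers, the last of these above all 3 corn oil livers. The SD within the treated group was 1.20, which is 5.61 times the SD of 0.21 in the corn oil group. The difference of -0.95 (SE 0.57, limma adjusted p = 0.520) became -1.64 (SE 0.16, adjusted p = 0.0929) without anthranilic acid replicate 3. Leaving out anthranilic acid replicate 1 or replicate 2 instead gave -0.56 and -0.65. The shifts of both Cyp4a2 probes differed by 0.15, less than the spread between arrays (exact two-sided permutation p = 0.7, with 0.1 the smallest p that 3 against 3 arrays allow).

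Cyp4a3, whose enzyme is closely similar to that of Cyp4a2, moved in the same arrays but less. Its probe read 7.64, 8.13 and 8.23 in corn oil livers and 7.58, 7.54 and 8.02 in treated livers. Anthranilic acid replicates 1 and 2 were only just below the lowest corn oil liver, and replicate 3 was inside the corn oil range. The difference was -0.29 (SE 0.20, limma adjusted p = 0.583), or -0.44 (SE 0.20, adjusted p = 0.496) without that array.

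Cyp4a8, a Cyp4a gene first described in rat kidney and prostate, has 3 probes, and they gave 3 different pictures. The brightest, A_42_P735495, read 7.85, 8.23 and 8.06 in corn oil livers and 6.65, 6.64 and 8.31 in treated livers, again with anthranilic acid replicate 3 on the corn oil side. Its difference was -0.85 (SE 0.46, limma adjusted p = 0.485), and -1.40 (SE 0.14, adjusted p = 0.0929) without that array. Leaving out anthranilic acid replicate 1 or replicate 2 instead gave -0.57 each time. The second probe, A_64_P040994, stayed between 4.06 and 4.41 on all 6 arrays, with a difference of 0.05 (SE 0.12, 95% interval -0.25 to 0.35).

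The third Cyp4a8 probe, A_64_P040989, was dim, and it alone among the Cyp4 probes fell below detection. It read -2.28, -2.41 and -3.61 in corn oil livers, and -4.94, -4.75 and -5.02 in treated livers, where it was not well above background on any array. Each treated array was set to the lowest signal of any detected probe on it, or to the probe's own signal if that was higher. Treated livers were then 2.88-fold lower. That floor is not the detection limit of this probe, so the value is not a lower bound. All 3 treated arrays, replicate 3 included, lay below all 3 corn oil arrays. The probe entered the test through the corn oil group alone, so its fitted value rests on undetected treated signals. It did not pass (limma adjusted p = 0.158), and a pass without corn oil replicate 3, the lowest of its group (adjusted p = 0.0139), has the same limit. With normexp background correction its fitted difference moved from -2.14 to -0.76.

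After centring each probe on its own mean over the 6 arrays, the root mean square difference from the brightest Cyp4a8 probe was 0.161 to Cyp4a2 probe A_44_P147020 and 0.186 to Cyp4a2 probe A_64_P019361. To the other Cyp4a8 probes it was 0.788 and 1.00. So the brightest Cyp4a8 probe followed Cyp4a2 more closely than it followed the other probes of its own gene. Over the 7 pairs of probes of one Cyp4 gene, the difference in shift was tested by exact two-sided permutation, and the smallest adjusted p was 0.35. The 2 dimmer Cyp4a8 probes differed in shift by 2.19 (exact p = 0.1, the smallest possible), though one of them was not well above background in treated livers.

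Cyp4a1, the lauric acid omega-hydroxylase used as a marker of PPAR-alpha activation in rat liver, did not follow Cyp4a2, Cyp4a3 or the brightest Cyp4a8 probe. Its brighter probe, A_64_P040870, read 7.36, 7.07 and 7.01 in corn oil livers and 7.03, 7.41 and 7.12 in treated livers. The groups overlapped, with anthranilic acid replicate 2 just above the highest corn oil liver, and the difference was 0.04 (SE 0.15, 95% interval -0.32 to 0.40). The other probe, A_44_P1059556, stood at -0.010 (SE 0.14). After centring, the root mean square difference between both probes was 0.029. To the flat Cyp4a8 probe A_64_P040994 it was 0.193 from A_64_P040870 and 0.184 from A_44_P1059556. On the chromosome Cyp4a1 is the next Cyp4 gene after Cyp4a3. The plot of centred Cyp4a signals shows both arrangements.

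**Figure D2:**
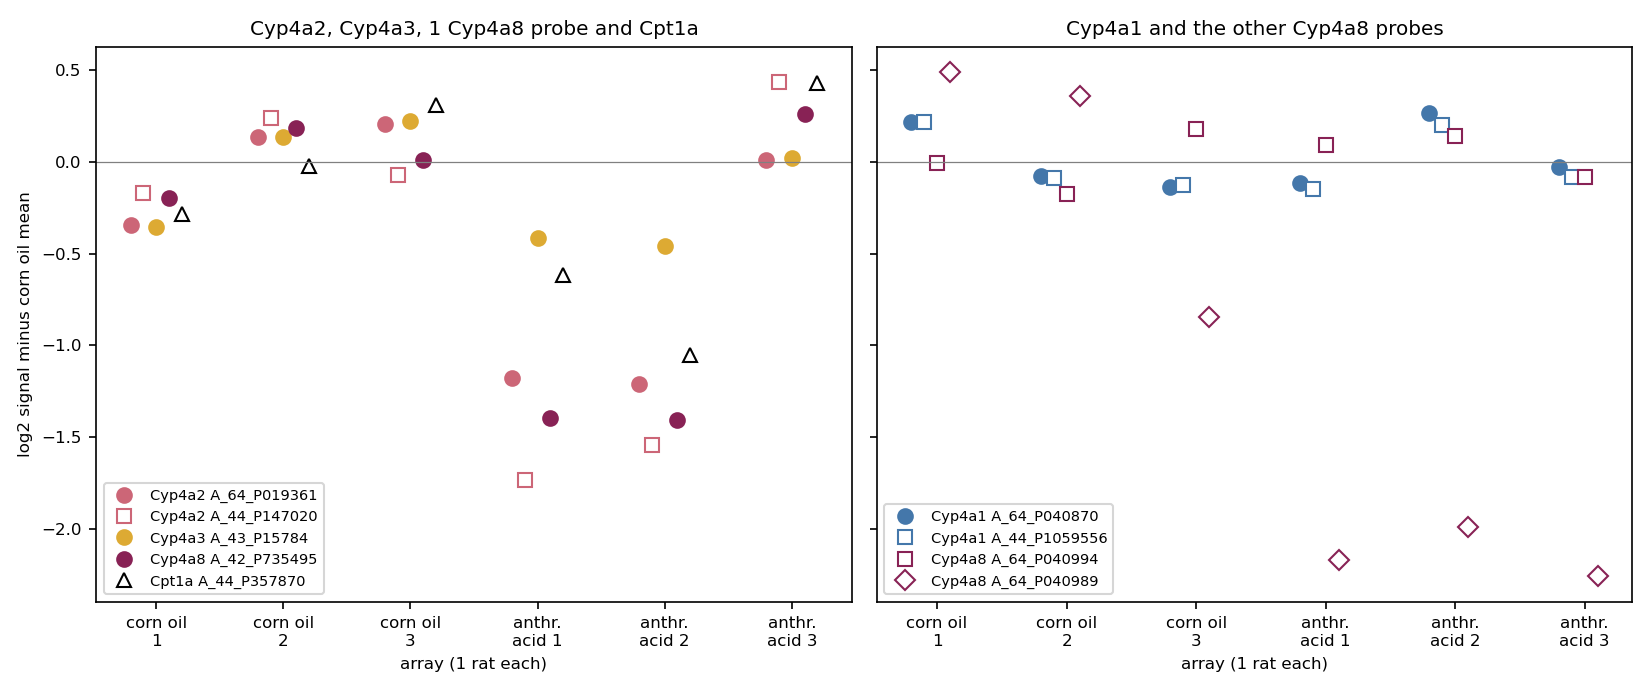
Log2 signal minus the corn oil mean of the same probe (vertical axis) on each of the 6 arrays (horizontal axis), for Cyp4a2, Cyp4a3, the brightest Cyp4a8 probe and Cpt1a on the left, and for Cyp4a1 and the other Cyp4a8 probes on the right. On the left, the points of anthranilic acid replicates 1 and 2 lie below 0 and those of replicate 3 at or above it; on the right, only Cyp4a8 probe A_64_P040989 is low, on all 3 treated arrays.

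Among 10257 genes with a tested probe, the pattern most like that of Cyp4a2 over the 6 arrays was that of the brightest Cyp4a8 probe, with a root mean square difference of 0.186 log2 units against a median of 0.610 over all genes. Next came Cpt1a, the mitochondrial carnitine palmitoyltransferase that admits fatty acids to beta-oxidation, at 0.239, and the complement regulator Cd46 at 0.258. Cpt1a read 4.49, 4.75 and 5.08 in corn oil livers and 4.15, 3.72 and 5.20 in treated livers, so that it too was low in anthranilic acid replicates 1 and 2 and high in replicate 3. Cd46, a dim signal, read -3.51, -3.37 and -3.59 in corn oil livers and -4.40, -4.59 and -3.82 in treated livers. Its replicate 3 was thus the highest treated liver but still below all corn oil livers. For the brightest Cyp4a8 probe, the closest genes after Cyp4a2 were the collagen-modifying P3h3 at 0.193 and the endoplasmic reticulum protein Ckap4 at 0.266. Only Cyp4a2 and Cyp4a8 spanned at least 1 log2 unit over the arrays, the condition set for this comparison.

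The arrangement of Cyp4a2 probe A_44_P147020 was found at few probes, as were its counterparts for the other treated replicates. At 23 of 33428 probes (0.0688%), anthranilic acid replicates 1 and 2 were both at least 1 log2 unit below every corn oil liver while replicate 3 was not below the lowest of them. There were 2 Cyp4 probes among the 23, Cyp4a2 A_44_P147020 and Cyp4a8 A_42_P735495. With replicate 1 or replicate 2 as the liver that stayed, the counts were 11 and 35 probes, none of them Cyp4. This criterion was set after the values were seen, so finding these Cyp4 probes among the 23 is no support. The brighter Cyp4a2 probe, A_64_P019361, did not meet it. Slide, row and scan go with the same split of the treated arrays. Row 1 held all corn oil arrays and anthranilic acid replicate 3, so row and the Cyp4a2 arrangement cannot be told apart over the 6 arrays, nor row and treatment within slide 1. Replicate 3 differed from replicates 1 and 2 by a median of -0.07 over hepatocyte markers, -0.90 over neutrophil, 0.36 over lymphocyte and 0.22 over cholangiocyte markers. The median was 0.19 over Kupffer cell, stellate and erythroid markers alike, and 0.11 over endothelial markers. Only 3 neutrophil markers had a probe, 2 of them well above background on all 6 arrays and Elane on none. The part of these differences in the split was not tested.

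The 3 Cyp4f members stood slightly higher in treated livers, none past the test, and anthranilic acid replicates 1 and 2 were not both below the corn oil livers at any of their probes. Cyp4f5, which is not a member, stood at -0.70 (SE 0.60) and at -1.24 without anthranilic acid replicate 3. Cyp4f1, a leukotriene B4 hydroxylase in the rat, read 8.02, 8.0 and 8.16 in corn oil livers and 8.12, 8.32 and 8.20 in treated livers. Anthranilic acid replicate 1 lay within the corn oil range and the other treated livers just above it, with a difference of 0.15 (SE 0.095, limma adjusted p = 0.533). Cyp4f4, which also hydroxylates leukotriene B4, read 6.88, 6.49 and 6.59 against 6.77, 7.07 and 6.92 in treated livers. Its difference was 0.26 (SE 0.14, adjusted p = 0.473), with 2 of 3 treated livers above all corn oil livers.

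Cyp4f6 had the widest range of the 3 Cyp4f members. Its brighter probe, A_42_P814479, read 5.27, 5.10 and 4.81 in corn oil livers and 5.09, 5.48 and 5.61 in treated livers, a difference of 0.33 (SE 0.18, limma adjusted p = 0.492). The other probe, A_64_P058850, stood at 0.35 (SE 0.19). Again anthranilic acid replicate 1 overlapped with corn oil and replicates 2 and 3 lay above it. Without replicate 3 the Cyp4f differences were 0.16 for Cyp4f1, 0.26 for Cyp4f4 and 0.22 for Cyp4f6.

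To contrast the subfamilies, each gene's brightest probe was centred on its mean over the arrays and averaged by subfamily. Cyp4a8 thus entered through A_42_P735495, at -0.85, and not through its flat probe A_64_P040994, at 0.05. The contrast with the flat probe in its place is not given here. The Cyp4a mean was 0.07, 0.33 and 0.31 in corn oil livers and -0.54, -0.47 and 0.30 in treated livers. The Cyp4f mean was 0.0098, -0.19 and -0.20 in corn oil livers and -0.058, 0.24 and 0.19 in treated livers. Anthranilic acid replicate 3 was thus inside the corn oil range for Cyp4a and above it for Cyp4f. For Cyp4f, anthranilic acid replicate 2 was also above the corn oil range, whereas replicate 1 was inside it. Cyp4a minus Cyp4f stood at 0.36 ± 0.26 (SD, n = 3) in corn oil livers and at -0.36 ± 0.42 (SD, n = 3) in treated livers, a difference of -0.72, or -0.95 without replicate 3.

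The shift of each Cyp4a gene was set against that of each Cyp4f gene, which gave 12 pairs. All 12 differences were below 0, from -0.11 for Cyp4a1 against Cyp4f1 to -1.18 for Cyp4a8 against Cyp4f6. The Cyp4a8 pairs rest on probe A_42_P735495 alone, and the flat probe A_64_P040994 was not used in them. By exact two-sided permutation the raw p was 0.1 at 2 pairs, Cyp4a1 against Cyp4f4 (-0.22) and Cyp4a1 against Cyp4f6 (-0.29), and the smallest adjusted p was 0.3. With 3 arrays per group the exact permutation test cannot go below p = 0.1, so no pair can pass a threshold of 0.05. The pairs share genes and arrays, and are not 12 independent observations.

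**Figure D3:**
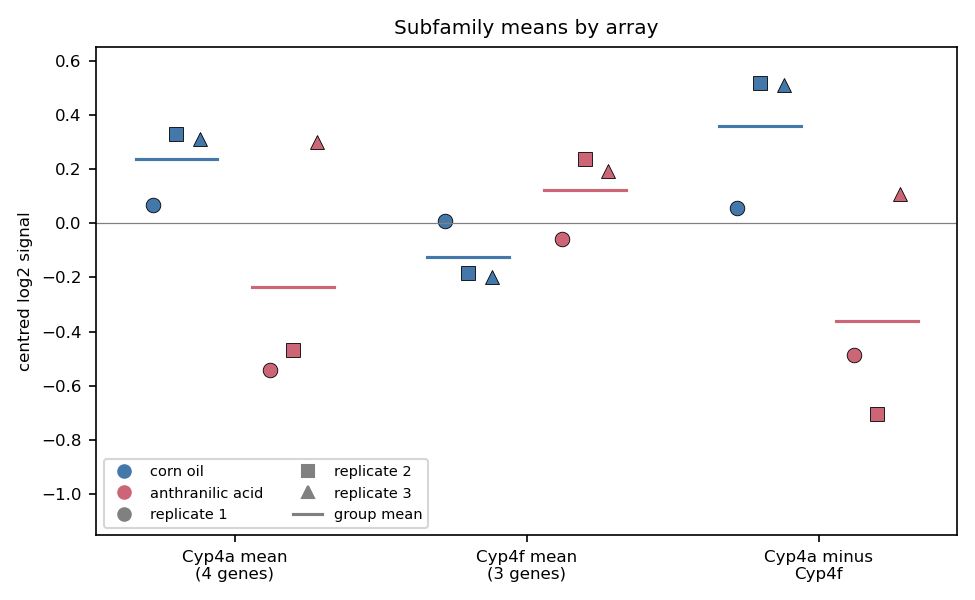
Mean centred log2 signal (vertical axis) of the 4 Cyp4a genes, of the 3 Cyp4f genes, and the Cyp4a mean minus the Cyp4f mean, in 3 corn oil livers (blue) and 3 anthranilic acid livers (red), with group means as lines. The Cyp4a mean of anthranilic acid replicate 3 (0.30) lies among the corn oil points, while its Cyp4f mean (0.19) lies above them.

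Cyp4b1, which in several mammals is mainly found outside the liver and activates foreign compounds such as 4-ipomeanol, was lower in all 3 treated livers. Its probe read -1.37, -1.16 and -1.30 in corn oil livers and -1.77, -2.03 and -1.94 in treated livers, well above background on all 6 arrays. No treated liver reached the lowest corn oil liver, and the spread within each group was small, at SD 0.11 and 0.13. The difference was -0.64 (SE 0.11, 95% interval -0.89 to -0.38), or 1.55-fold, and it missed the threshold (limma adjusted p = 0.162). With normexp background correction the difference was -0.41. Without anthranilic acid replicate 3 it was -0.62 (SE 0.13), so it did not share the split of Cyp4a2. The summed signal of 4 kidney tubule markers, 2 of them well above background on all arrays, was 0.998 to 1.11 in corn oil livers and 0.719 to 0.969 in treated livers, and its part in the Cyp4b1 value was not tested.

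Cyp4v3 is the rat counterpart of human CYP4V2, a fatty acid hydroxylase mutated in a crystalline retinal dystrophy. Probe A_44_P355775 read 2.40, 2.48 and 2.22 in corn oil livers and 2.22, 2.76 and 2.50 in treated livers. The groups overlapped, with a difference of 0.12 (SE 0.16, limma adjusted p = 0.768). The other probe stood at 0.058 (SE 0.12, 95% interval -0.24 to 0.36).

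**Figure D4:**
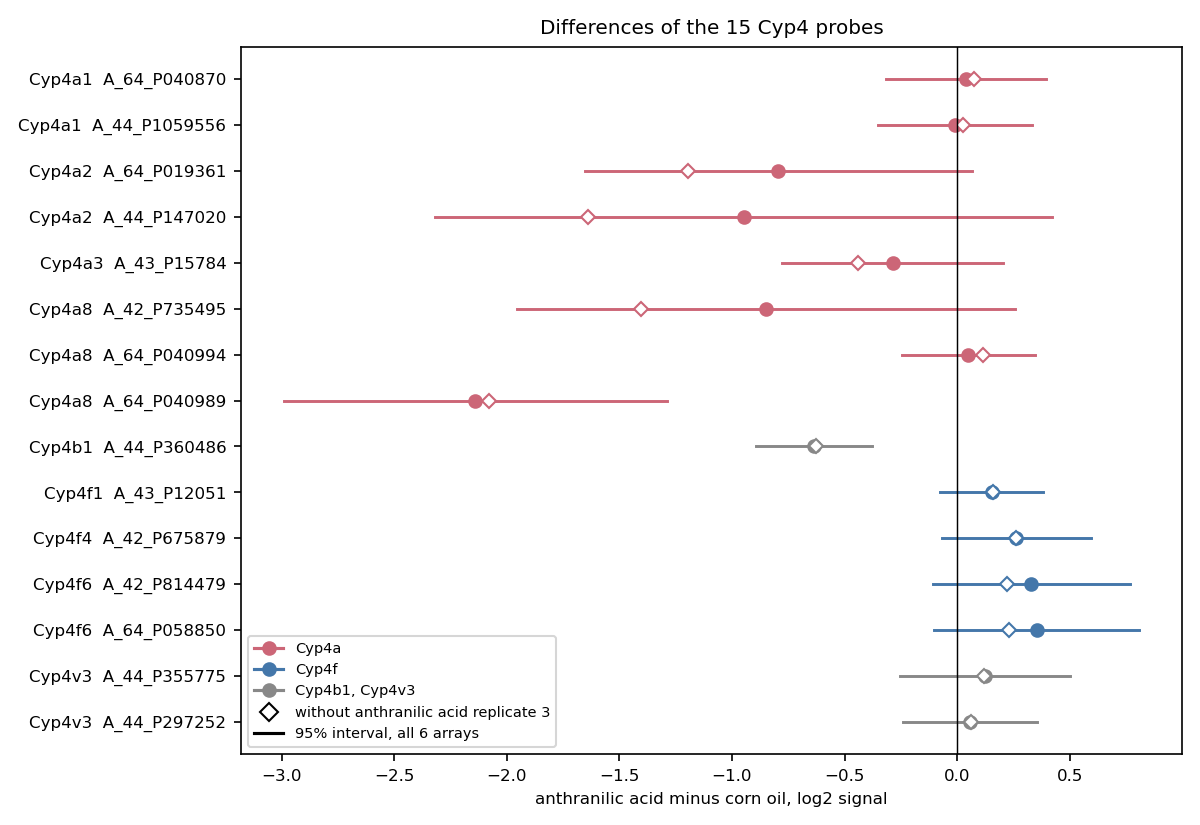
Difference in log2 signal, anthranilic acid minus corn oil (horizontal axis), of the 15 Cyp4 probes with 95% intervals from limma over 6 arrays (filled points and lines) and without anthranilic acid replicate 3 (open diamonds). Leaving out that array moves both Cyp4a2 probes and the brightest Cyp4a8 probe to the left, and moves Cyp4a1, Cyp4b1 and Cyp4v3 little.

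Genes of the electron supply to the Cyp4 step and of the steps after it lay on both sides of 0. Of 31 tested genes for electron supply, alcohol and aldehyde dehydrogenases, transport and peroxisomal shortening, 15 were higher and 16 lower, with a median of -0.06, against a median of 0.0085 over all 10257 genes. None passed by limma, and at unadjusted p under 0.05 there were 4 higher and 2 lower, where 5.47% of all genes were higher and 6.15% lower. The stomach-type alcohol dehydrogenase Adh7 stood at 1.29 (SE 0.41), the acyl-CoA synthetase Acsl5 at 0.44 (SE 0.13), Aldh9a1 at 0.35 (SE 0.09) and cytochrome b5, Cyb5a, at 0.24 (SE 0.095). Crot, the peroxisomal carnitine octanoyltransferase, stood at -0.69 (SE 0.25) and Abcd3, a peroxisomal importer of dicarboxylic acids, at -0.30 (SE 0.10). The limma adjusted p of these 6 genes ranged from 0.285 for Aldh9a1 to 0.401 for Cyb5a.

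Por, which passes electrons to all microsomal P450 enzymes, stood at -0.32 (SE 0.24). Adh1, the main liver alcohol dehydrogenase, which RefSeq lists as Adh1c, stood at 0.38 (SE 0.24). Aldh3a2, the fatty aldehyde dehydrogenase, was at -0.11 (SE 0.12). Without 1 array at a time, Por ranged from -0.55 to -0.11, Adh1c from 0.16 to 0.59 and Aldh3a2 from -0.20 to -0.019. The mean of anthranilic acid replicates 1 and 2 was at least 1 log2 unit below the corn oil mean at 0 of the 31 genes. The same count was 2 of 28 in the list of PPAR-alpha and its targets (Vnn1 and Acot1, named after their values were seen), 1 of 17 arachidonic acid genes (Ltc4s) and 1 of 3 other Cyp4 genes (Cyp4f5). The share of all genes at this cut was not counted, and the cut follows the split of the treated arrays. These counts therefore do not set the lists apart from other genes or from each other.

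PPAR-alpha and its other targets leaned lower. Of 28 tested genes 24 were below 0, with a median of -0.21, where 48.0% of all genes were below 0. By limma none passed, and at unadjusted p under 0.05 there were 5 lower and 1 higher, where 6.15% of all genes were lower and 5.47% higher. Lower values included the lipid droplet protein Plin2 at -0.47 (SE 0.12, adjusted p = 0.268), the liver transcription factor Creb3l3 at -0.32 (SE 0.09), the lipase inhibitor Angptl4 at -0.43 (SE 0.12) and the thioesterase Acot2 at -0.67 (SE 0.19). The fatty acid transporter Cd36 stood at 0.82 (SE 0.24, adjusted p = 0.319).

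The receptor gene Ppara read 1.25, 0.23 and 0.91 in corn oil livers and -0.39, 0.48 and 0.09 in treated livers, a difference of -0.73 (SE 0.32, limma adjusted p = 0.420). Cpt1a stood at -0.41 (SE 0.38), and at -0.84 without anthranilic acid replicate 3. Without 1 array at a time, Cpt1a ranged from -0.84 to -0.094, the latter without anthranilic acid replicate 2, and stood at -0.26 without corn oil replicate 3. The median of the whole list was -0.20 without anthranilic acid replicate 3 and ranged from -0.27 to -0.14, the latter without corn oil replicate 1.

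**Figure D5:**
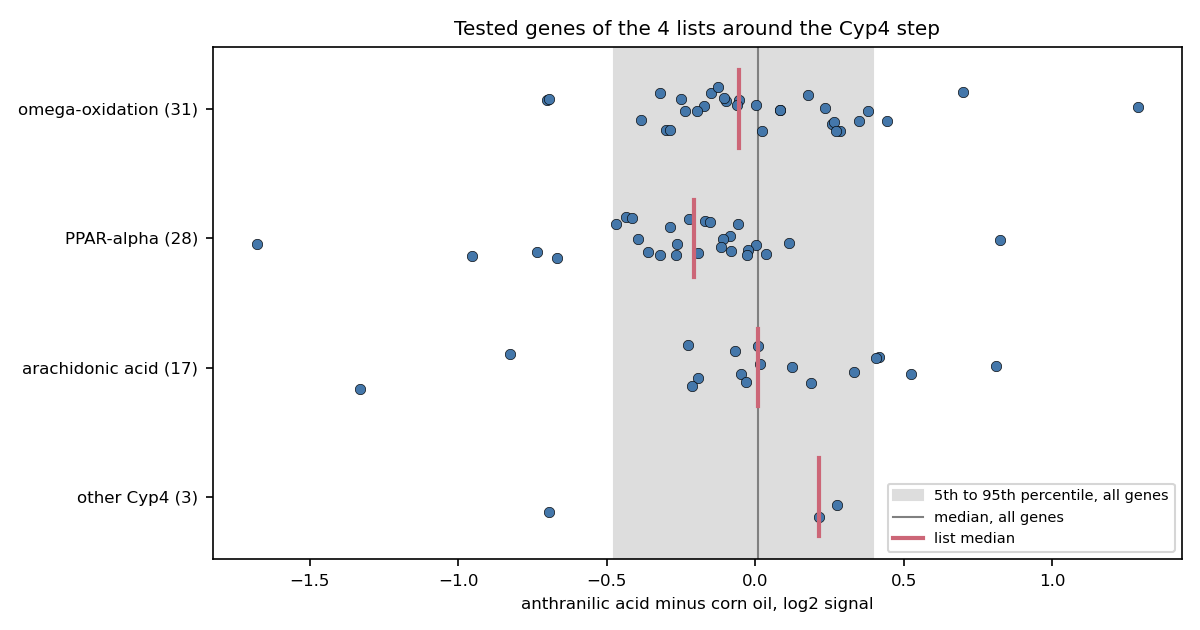
Difference in log2 signal (horizontal axis) of each tested gene in 4 lists around the Cyp4 step, with the list median in red and the 5th to 95th percentile of all 10257 genes as a grey band. Most PPAR-alpha list genes lie left of 0 (24 of 28), and the omega-oxidation list is spread evenly (16 of 31 lower).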

How the data were processed

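Agilent Feature Extraction 10.7.1.1 read the arrays, per the file headers, and the submitters' processing notes name version 10.7. The deposited intensity values are the processed signal of that software in 1 colour, per the file headers, which also list background-subtracted signals and detrending statistics. Their 75th percentiles ran from 489 to 523. The authors' deposited table holds a ratio of that signal to 1 value per array, within 0.126% of the array's 75th percentile, and served as an alternative.

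For this work, each array's 75th percentile of non-control probes was subtracted on the log2 scale. Control spots and 14 flagged outlier spots were left out, and no spot was saturated. Testing required a well-above-background flag on every array in either group, and at least 2 unflagged spots per group. Accessions were matched without version to the RefSeq table of GRCr8, which named 27460 of 61657 probes. The file headers name rn4, so only promoter coordinates are given. A gene was represented by its brightest tested probe. The test was limma's moderated one (version 3.58.1, R 4.3.3), two-sided with Benjamini-Hochberg adjustment over all tested probes, and was checked on simulated data. The number of arrays limits the precision. Intervals are 95%.

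Replicates are different animals, per the labels. Alternatives were normexp, quantile and median scaling, the authors' table, other filters, blocks for slide and replicate, other variance settings, and leaving out each array. Members and lists were chosen with earlier results of these data known. All member probes are named. From each list, genes with unadjusted p under 0.05 were named, at most 4 in each direction by smallest p, and so were Por, Adh1, Aldh3a2, Ppara and Cpt1a whatever their values; 1 further gene of this rule is not reported here. For members spanning at least 1 log2 unit over the arrays, the 3 genes of closest centred pattern were named. Same-numbered rats did not deviate together (correlations 0.07, -0.05 and -0.04), so replicate numbers were not used as pairs.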

Additional observations from a re-analysis of the deposited data

How the results depend on the processing

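Of 263 values of Cyp4 probes under alternative settings, 249 kept their direction and stayed on the same side of the threshold, 13 turned direction and 1 passed. The sign changes were all at probes whose main difference was smaller than its SE. Cyp4a1 probe A_44_P1059556 was at 0.033 with normexp, 0.041 with median scaling and 0.027 with slide as a block. With quantile normalisation, Cyp4a1 probe A_64_P040870 was at -0.016 and Cyp4a8 probe A_64_P040994 at -0.0076. Slide as a block gave the same estimates as leaving out anthranilic acid replicate 3, the only array on slide 2, so these settings are not independent. Leaving out 1 array at a time, Cyp4a1 ranged from -0.12 to 0.10 at A_44_P1059556 and from -0.074 to 0.15 at A_64_P040870. Cyp4a8 A_64_P040994 ranged from -0.037 to 0.14, and Cyp4v3 from -0.0100 to 0.26 and from -0.042 to 0.15. Cyp4f17, which is not a member and not in these counts, ranged from -0.027 to 0.76. Over the same leave-outs, Cyp4a2 ranged from -1.20 to -0.59 and from -1.64 to -0.56, Cyp4a3 from -0.47 to -0.17 and the brightest Cyp4a8 probe from -1.40 to -0.57. The count of Cyp4 probes past the threshold was 0 under every alternative except without corn oil replicate 3, when it was 1 (Cyp4a8 A_64_P040989, at -2.56, adjusted p = 0.0139). This range was 0 to 1.

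Over all probes the count of 11 became 50 with normexp, 21 with median scaling, 2 without the filter on dim probes, 2 with only probes above background on all 6 arrays, 6 with slide as a block, 2 with the replicate block, 45 with a trended robust variance, 18 with array weights and 4 to 21 without 1 array. The replicate block changed no Cyp4 call. The Cyp4a minus Cyp4f difference ranged from -0.95 to -0.55 without 1 array and from -0.89 to -0.60 without 1 gene. The arachidonic acid list median moved to -0.045 with normexp, 0.059 with median scaling and between -0.055 and 0.040 without 1 array, the omega-oxidation median ranged from -0.10 to 0.066 and that of the other Cyp4 genes from -0.027 to 0.25. The count of 23 probes with the Cyp4a2 arrangement became 60 at a margin of 0.5 log2 units, with 3 Cyp4 probes. At that margin, with replicate 1 or replicate 2 as the liver that stayed, the counts were 66 and 65, none of them Cyp4. The cause of these shifts was not tested. Dim probes such as Cyp4a8 A_64_P040989 are limited by background: with normexp its difference was -0.76 (adjusted p = 0.187).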

Other observations

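Cyp4 genes outside the set did not all follow the Cyp4f members, and none passed the test. Cyp4f40 stood at 0.21 (SE 0.11, limma adjusted p = 0.458) and, like Cyp4f4 and Cyp4f6, was above all corn oil livers in anthranilic acid replicates 2 and 3. Cyp4f5, read by 2 probes, ranged widely in both groups: its brighter probe was -0.18, -0.72 and -1.83 in corn oil livers and -1.81, -2.48 and -0.52 in treated livers, a difference of -0.70 (SE 0.60), or -1.24 without anthranilic acid replicate 3. In that probe the treated replicates 1 and 2 were low and replicate 3 lay in the corn oil range, as at Cyp4a2, but corn oil replicate 3 was as low as treated replicate 1. The other Cyp4f5 probe stood at -0.25 (SE 0.59). Cyp4f17 stood at 0.28 (SE 0.45) and at 0.76 without anthranilic acid replicate 3. Cyp4x1 and Cyp4f18 were not well above background on any array.

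Enzymes of arachidonic acid and leukotriene metabolism, which share substrates with the Cyp4 enzymes, had a median of 0.0082 over 17 tested genes, 9 higher and 8 lower, and none passed by limma. At unadjusted p under 0.05 there were 3 higher and 2 lower, where 5.47% of all genes were higher and 6.15% lower. The leukotriene C4 synthase Ltc4s was well above background on 3 corn oil but only 2 treated arrays, and stood at -1.33 (SE 0.42, limma adjusted p = 0.343), or at -0.67 with normexp background correction. The prostaglandin E synthase Ptges2 stood at -0.21 (SE 0.085). The prostaglandin-degrading enzymes Hpgd and Ptgr1 stood at 0.52 (SE 0.18) and 0.33 (SE 0.12), and Alox5ap, which presents arachidonic acid to 5-lipoxygenase, at 0.42 (SE 0.17), or 0.21 with normexp. Summed neutrophil marker signals were 1.5 to 2.48 in corn oil livers and 1.74 to 3.53 in treated livers, with Elane not well above background on any array.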
